A study of Mus musculus with 8 samples.

Results

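The Ly6 genes of mouse chromosome 15 were examined as 8 members, Ly6i, Ly6a, Ly6c1, Ly6c2, Ly6d, Ly6e, Ly6f and Ly6k, each measured by 1 probe set, out of 27288 gene symbols and 43681 probe sets on the array. Probe sets were taken by the gene symbol in the annotation that the authors deposited, and the list of members was chosen by way of the dox against water differences of these same arrays, in which Ly6i stood out. The members' differences between dox and water are therefore given as a description, without a p-value, and nothing is supported with them. Whole lungs came from BALB/c mice of a line titled lung-specific IL-1b-Tg, in which doxycycline (dox) switches on a transgene for interleukin-1b, an early signal of inflammation made by phagocytes. There were 5 arrays of lungs from dox-treated mice and 3 arrays of lungs from water-treated mice. Both groups carried the transgene and were sampled on day 7 of dox or water, and the labels put the mice at roughly 12 weeks old, while a table header gives 5 weeks. No source used here names the promoter that drives the transgene, and since no group lacked it, effects of dox and of interleukin-1b cannot be told apart. The labels do not say that each array is a separate animal, and p-values measure the spread between these arrays.

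Ly6 proteins are small, disulphide-rich proteins that most often sit on the outer cell membrane through a glycosylphosphatidylinositol anchor. Many were first found as antigens that divide mouse blood cells into types, and the antibodies to Ly-6C and Ly-6G still define inflammatory monocytes and neutrophils in mouse tissue. Ly6a, also called Sca-1, marks progenitor cells, and Ly6a, Ly6c1 and Ly6e are also known from endothelium or from the response to interferon.

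The genes lie close together and are products of gene duplication, so their transcripts can resemble each other. The likeness is visible just upstream of some of the genes. Windows from RefSeq (build GRCm38.p6) are shown for the members Ly6c1, Ly6c2 and Ly6f and for the relatives Ly6a2 and Ly6g. They show which of these 5 windows are most alike. No window was available for Ly6i, Ly6a, Ly6d, Ly6e or Ly6k, so these members were not compared. Each window holds 120 bases, 5′ to 3′ on the strand of the gene, and ends with an 11-base stretch found in all 5, a choice of window made after the sequences were seen. Capitals mark bases that differ from Ly6c2 in a pairwise alignment.
Ly6c2, chr15:75112088-75112207, minus strand: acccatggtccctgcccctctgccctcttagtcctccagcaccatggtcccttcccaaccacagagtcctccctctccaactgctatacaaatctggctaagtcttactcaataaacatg
Ly6a2, chr15:75135240-75135359, minus strand: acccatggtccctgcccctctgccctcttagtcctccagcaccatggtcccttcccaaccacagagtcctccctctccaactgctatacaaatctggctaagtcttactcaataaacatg
Ly6c1, chr15:75048921-75049040, minus strand: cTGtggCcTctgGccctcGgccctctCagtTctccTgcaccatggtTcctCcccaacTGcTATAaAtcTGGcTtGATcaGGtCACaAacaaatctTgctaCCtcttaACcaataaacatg
Ly6f, chr15:75268191-75268310, plus strand: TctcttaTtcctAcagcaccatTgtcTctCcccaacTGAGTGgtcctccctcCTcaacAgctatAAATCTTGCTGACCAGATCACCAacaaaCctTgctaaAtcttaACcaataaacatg
Ly6g, chr15:75155102-75155221, plus strand: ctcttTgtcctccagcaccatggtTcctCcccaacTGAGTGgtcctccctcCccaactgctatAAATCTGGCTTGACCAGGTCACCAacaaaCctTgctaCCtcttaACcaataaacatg

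The windows of Ly6c2 and Ly6a2 were identical in 120 of 120 aligned bases. Ly6f and Ly6g shared 107 of 120 aligned positions (89.2%), and Ly6c1 was nearest to Ly6g (77.0%), with 70.0% identity to Ly6c2. These are upstream sequences and not the probes, so they show how alike these windows are and not which transcript a probe binds. The probe sequences were not used here. The array names the probe sets of Ly6c1 and Ly6e with the suffix _s_at, which in such names usually marks probes shared between transcripts.

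Ly6i, a mouse Ly-6 protein of blood cells, differed far more than its relatives. Its probe set read 717, 460.25, 592, 573 and 738 intensity units in dox 1 to 5, against 31.95, 24.5 and 35.1 units in water 1 to 3. Every dox lung was high and every water lung low, and the lowest dox value was 13.1 times the highest water value. The geometric means were 607 units in dox and 30.2 units in water, a 20.1-fold difference (log2 difference, dox minus water, 4.33 ± 0.16 SE from limma). Replicate spread was small beside it, with SDs of 0.28 in dox and 0.27 in water on the log2 scale. Of all 43681 probe sets, 4 had a larger log2 difference. Water values lay between the lower quartile (13.9 to 14.5 units over arrays) and the median (40.8 to 41.9 units) of all probe sets, and the files used give no detection call for a probe set, so how far the water signal exceeds background is unknown. With 16 units added before the log2 transform, the difference was 3.75.

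**Figure D1:**
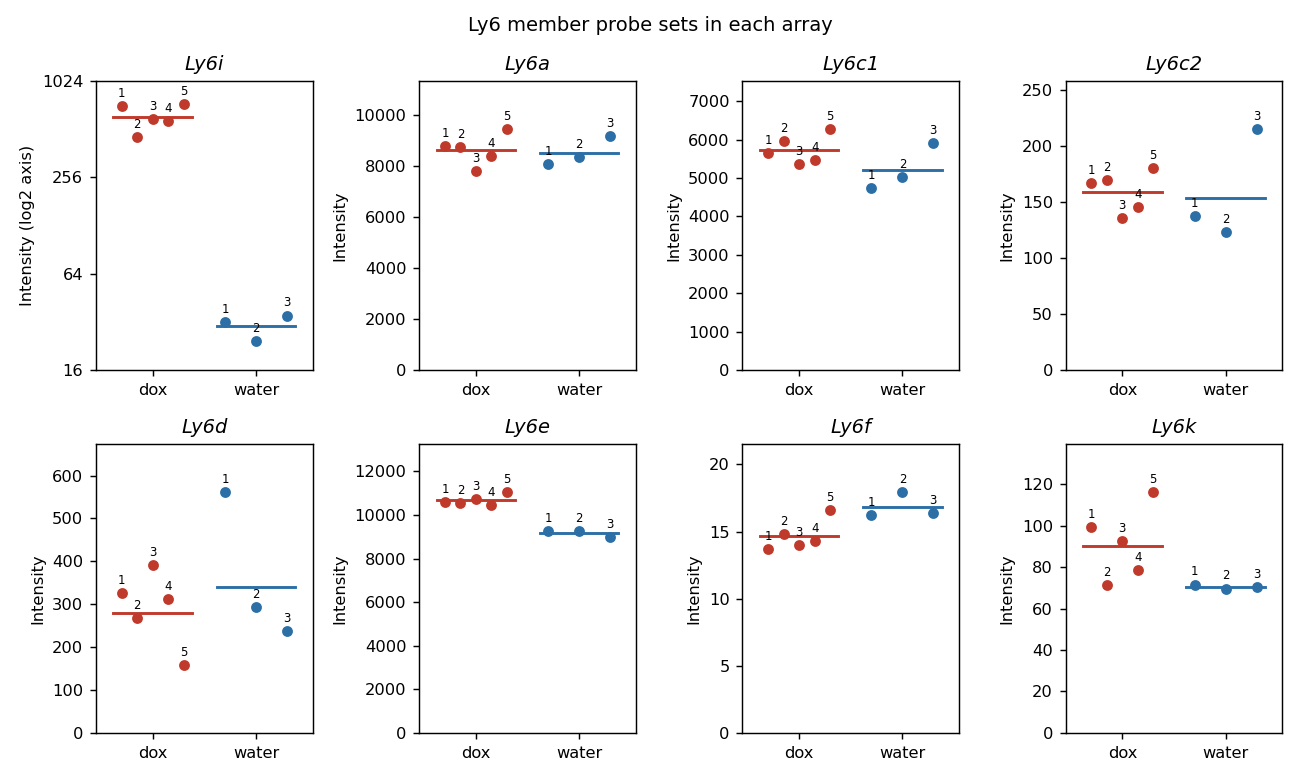
Intensity of each member's probe set in every array (y axis, intensity units, with a log2 axis for Ly6i and axes from 0 for the others), with dox arrays to the left of water arrays, numbers giving the replicate and lines the geometric mean. Ly6i separates the groups widely (460.25 to 738 in dox, 24.5 to 35.1 in water), Ly6e narrowly, and the other 6 members overlap.

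Of the 8 members, 1 (Ly6i) passed an adjusted p of 0.05 in limma, in the higher direction, where 2.31% of all probe sets passed higher, 0.79% lower and 3.1% in either direction. The groups did not overlap for 2 members, Ly6i and Ly6e, both higher in dox, where 6.04% of all probe sets were separated with dox higher and 6.12% with dox lower. The median log2 difference over the members was 0.09, against -0.02 over all probe sets. Apart from Ly6i and the dim Ly6f, the log2 differences of the other 6 members reached 0.35 at most in size, with folds of dox over water from 0.82 to 1.28.

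Ly6a and the Ly-6C genes, which follow Ly6i along the chromosome, had overlapping values in the 2 groups, bright for Ly6a and Ly6c1 and moderate for Ly6c2. Ly6a read 8765, 8754, 7792, 8374 and 9432 units in dox 1 to 5, against 8067, 8335 and 9177 units in water 1 to 3. The values overlapped, with dox 5 and water 3 the highest of their groups (log2 difference 0.02 ± 0.08 SE). Ly6c1, the form of Ly-6C known from endothelium, read 5642, 5964, 5377, 5462 and 6271 units in dox 1 to 5, against 4744, 5036 and 5900.5 units in water 1 to 3. Again dox 5 and water 3 were highest, and water 3 lay inside the dox range (log2 difference 0.14 ± 0.09 SE). Ly6c2, the form of Ly-6C associated with monocytes, read 167, 169.65, 136, 145 and 180.45 units in dox 1 to 5, against 138, 123 and 215 units in water 1 to 3. All dox values lay within the water range, which water 3 stretched upward (log2 difference 0.05 ± 0.16 SE). Without water 3 its difference was 0.29, and without water 2 it was -0.11. The 5 dox arrays fell in the same order for Ly6c1 and Ly6c2, from high to low dox 5, 2, 1, 4 and 3. The share of all probe sets with that order was not counted, and nothing is read from the match. Ly6a, Ly6c1 and Ly6e stood at or above percentile 99.3 of all probe sets in every array, a range in which array signals can saturate and differences can be compressed.

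Ly6e, a broadly expressed member that responds to interferon in mice, showed a small and tight difference. It read 10605, 10551, 10717, 10446 and 11054 units in dox 1 to 5, against 9264, 9274 and 9008 units in water 1 to 3. The lowest dox value exceeded the highest water value, and the geometric means differed by 16.2% (log2 difference 0.22 ± 0.06 SE).

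Ly6k, a protein of male germ cells, read 99.45, 71.35, 92.9, 78.4 and 116 units in dox 1 to 5, against 71.7, 69.7 and 70.7 units in water 1 to 3. Of its dox values, 4 lay above every water value and dox 2 fell among them (log2 difference 0.35 ± 0.14 SE). The dox values spread far more (SD 0.28) than the water values (SD 0.02). Its dox arrays stood in the same order as those of Ly6i, high to low dox 5, 1, 3, 4 and 2, an order shared by 0.964% of all probe sets. Each of the 7 other members could have matched Ly6i, and nothing is read from this match. Ly6f read 13.7, 14.8, 14.0, 14.3 and 16.6 units in dox 1 to 5, against 16.2, 17.95 and 16.4 units in water 1 to 3. These values lay near the lower quartile of the array, where a signal above background cannot be shown, and no difference is drawn from them.

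Dox 5 was the highest of the 5 dox arrays for 7 of the 8 members, as it was for 23.7% of all probe sets, and the lowest for the remaining member, Ly6d.

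Ly6d, once named ThB, is an antigen of early B lineage cells in mice and is also made by squamous epithelium. It read 325, 268, 392, 313 and 158 units in dox 1 to 5, against 562, 293 and 238 units in water 1 to 3. The groups overlapped, with water 1 high and dox 5 low (log2 difference -0.29 ± 0.31 SE). Its spread was the widest of the 8 members in both groups, with SDs of 0.50 in dox and 0.65 in water. Without water 1 the difference was 0.08, and without water 3 it was -0.54.

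Ly6d followed the B cell markers from array to array. The summed intensity of 8 B cell markers was 990, 823, 1182, 968 and 552 units in dox 1 to 5, against 2067, 1041 and 760 units in water 1 to 3. Both Ly6d and this sum placed the dox arrays in the order 3, 1, 4, 2 and 5 and the water arrays in the order 1, 2 and 3, from high to low. Over the 8 arrays, on the log2 scale, Pearson's r was 0.98 (exact permutation p = 0.000248, 0.00744 after Benjamini-Hochberg adjustment) and Spearman's rho was 0.93 (exact permutation p = 0.00223, adjusted 0.0335), both 2-sided. Without water 1 and dox 5, the 2 arrays farthest from the median of the sum, r was 0.93 over 6 arrays. With each group's mean subtracted, r was 0.98. Among the other lists kept for Ly6d, the T cell sum came nearest, with r = 0.72 (exact permutation p = 0.0478, adjusted 0.222). Its rho was 0.71 (adjusted 0.249), so the relation may not be particular to B cell markers. The relation of Ly6d with the B cell sum was noticed in these data before it was tested, so its p-values are a description and do not support it. Adjustment covered 30 relations between members and marker lists. Relations in which either side separated dox from water had been set aside by their values. The adjusted p-values depend on that choice, also those given below for Ly6c1 and Ly6a. Single B cell genes went along with Ly6d to different degrees. Pearson's r over the 8 arrays, given as a description, was 0.99 for Cd79b, a subunit of the B cell receptor complex, and 0.97 for Ms4a1, a surface protein of mature B cells, but 0.36 for Cd79a and -0.36 for Pax5, whose probe sets were dim at 22.3 to 35.1 units.

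**Figure D2:**
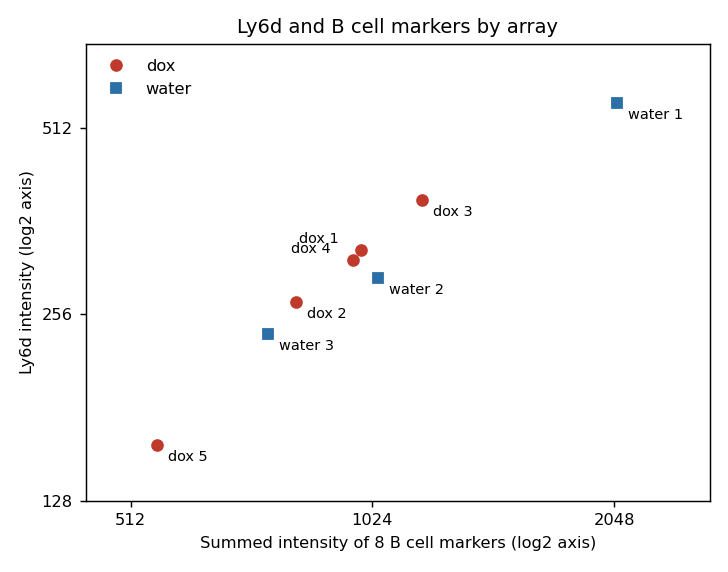
Intensity of Ly6d (y axis, log2 axis) against the summed intensity of 8 B cell markers (x axis, log2 axis) in the 5 dox arrays (circles) and 3 water arrays (squares), 1 point per array. Points run from dox 5 (158 for Ly6d, 552 for the sum) to water 1 (562 and 2067).

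No B cell marker passed in limma: 0 of 8 at an adjusted p of 0.05, 0 of 8 at an unadjusted p of 0.05 and 0 of 8 with the trend and robust prior, with a median log2 difference of -0.30. In whole-tissue RNA, fewer cells of a type and less RNA per cell cannot be told apart. Squamous and basal markers, of the other cell type known for Ly6d, were dim: their summed intensity ran from 183 to 193 units in dox and from 178 to 189 units in water over 8 genes. Of those 8 markers 0 passed in limma and 1 had an unadjusted p under 0.05, while 1 passed higher under 7 of the 17 alternatives, the trend and robust prior among them. Trp63, a transcription factor of basal cells, was nearest to the threshold (0.49 ± 0.12 SE, limma adjusted p = 0.052), with 18.6 to 25.9 units in dox and 15.5 to 18.1 units in water. The part of these cells in the Ly6d values was not tested. Ly6c1 ran the other way from the B cell sum (r = -0.92, exact permutation p = 0.000595, adjusted 0.00893; rho = -0.93, adjusted 0.0335; r = -0.78 without water 1 and dox 5). For Ly6a, rho was -0.90 (exact permutation p = 0.00456, adjusted 0.0456) while r, -0.82, did not pass (exact permutation p = 0.0112, adjusted 0.112).

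Ly6i was set beside markers of the cells that could carry it. Of 10 monocyte markers, 7 passed higher in dox, with a median log2 difference of 1.02 and a summed intensity of 10991 to 15730 units in dox, against 5896 to 7165 units in water. Cd14, a co-receptor for endotoxin, differed most (2.40 ± 0.15 SE, limma adjusted p = 9.82e-06), and Chil3, a chitinase-like protein, was the brightest (1.03 ± 0.14 SE). Chil3 alone gave 5326 to 7867 units of the sum in dox and 2854 to 3895 units in water, so the sum largely follows this gene. Of 10 macrophage markers, 8 passed higher, with a median of 1.10 and sums of 7493 to 10096 units in dox, against 3531 to 3630 units in water. The complement subunit C1qb led them (2.03 ± 0.13 SE). Of 14 neutrophil markers, 7 passed higher, with a median of 1.06 and sums of 5630 to 11041 units in dox, against 2560 to 5141 units in water. Cd177, a surface protein of neutrophils, led them (3.96 ± 0.24 SE), whereas Elane (0.16 ± 0.09 SE) and Mpo (-0.12 ± 0.09 SE), made by immature neutrophils, did not pass and were dim. Camp, Ngp, Ltf, Mmp9 and Retnlg did not pass either. Of these, Retnlg was bright, at 448 to 1220 units in dox and 366 to 556 units in water (0.92 ± 0.29 SE). The part of these cells in the Ly6i difference was not tested. The gene of the Ly-6G antigen, which was picked here after its values were seen, did not pass. Ly6g read 13.1, 15.2, 17.15, 13.7 and 13.9 units in dox 1 to 5, against 12.98, 13.8 and 12.1 units in water 1 to 3, near the lower quartile (0.17 ± 0.09 SE, limma adjusted p = 0.416). Its probe set thus shows no clear signal in any array, although other neutrophil markers were plainly measured.

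Of 20 measured interferon-response genes (of 21 listed), 9 passed higher in dox, with a median log2 difference of 0.46. Cxcl9, a lymphocyte chemokine induced by interferon gamma, differed most (1.21 ± 0.16 SE, limma adjusted p = 0.00166), and Irf1, the brightest, did not pass (0.33 ± 0.08 SE, adjusted p = 0.0686). Without water 2, 4 of them passed. Among classic targets of interferons alpha and beta, Isg15 (0.02 ± 0.08 SE), Ifit3 (-0.18 ± 0.13 SE), Rsad2 (-0.18 ± 0.24 SE) and Ifit2 (-0.35 ± 0.09 SE, limma adjusted p = 0.0688) did not pass. Ifit2 had every dox value below every water value, and 1 gene of the list passed lower with the trend and robust prior and with 16 units added. Summed intensity was 8496 to 9810 units in dox, against 6942 to 7747 units in water. The 10 endothelial markers had a median log2 difference of -0.27 and sums of 23848 to 26895 units in dox, against 28562 to 30859 units in water. Of these 10, 0 passed in limma, 8 had an unadjusted p under 0.05 and 3 passed with the trend and robust prior. Cldn5, a tight junction protein and the brightest of them, had a log2 difference of -0.24 ± 0.08 SE. Of 10 T cell markers 0 passed, with 1 at an unadjusted p under 0.05, 0 with the trend and robust prior and a median of -0.01. Of 4 club cell markers 0 passed, with 1 at an unadjusted p under 0.05, 0 with the trend and robust prior and a median of -0.10. Lung identity was clear on every array: the surfactant gene Sftpc read 25427 to 25868 units in dox, against 25663 to 26107 units in water, and 1 of 6 lung markers passed, the surfactant protein gene Sftpd (0.44 ± 0.08 SE, limma adjusted p = 0.00817). The median of the 6 was -0.17. Ager (-0.19 ± 0.06 SE), Hopx (-0.16 ± 0.07 SE) and Sftpb (-0.17 ± 0.06 SE), picked here after their values were seen, did not pass, although every dox value lay below every water value, and 2 of the 6 passed lower with the trend and robust prior. Over probe sets, pairs of arrays within a group had r of 0.994 to 0.997, pairs across the groups had 0.990 to 0.995, and 0 pairs were identical.

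The profile of Ly6i over the 8 arrays was compared with that of every named probe set, by the root-mean-square difference of log2 values after each probe set's water mean was subtracted. The nearest was Cxcl1, a chemokine for neutrophils, at 0.38, followed by Cd177 at 0.56. Next came Slc26a4, an anion exchanger of airway epithelium, at 0.62, Lcn2, a lipocalin that withholds iron from bacteria, at 0.71, and Cxcl3, another neutrophil chemokine, at 0.90. The measure mostly reflects the size of the difference. Within the dox group, Lcn2 ordered the arrays as Ly6i did except for the last pair, with dox 4 lowest for Lcn2 and dox 2 lowest for Ly6i. Other profiles diverged: Ly6i was lowest in dox 2 (460.25 units), where Cxcl3 was highest (1003 units), and Cd177 was lowest in dox 1 (275 units), where Ly6i was second highest (717 units). Cxcl1 read 1893, 1605, 998, 1152 and 1874 units in dox 1 to 5, against 52.0, 61.5 and 69.4 units in water 1 to 3.

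**Figure D3:**
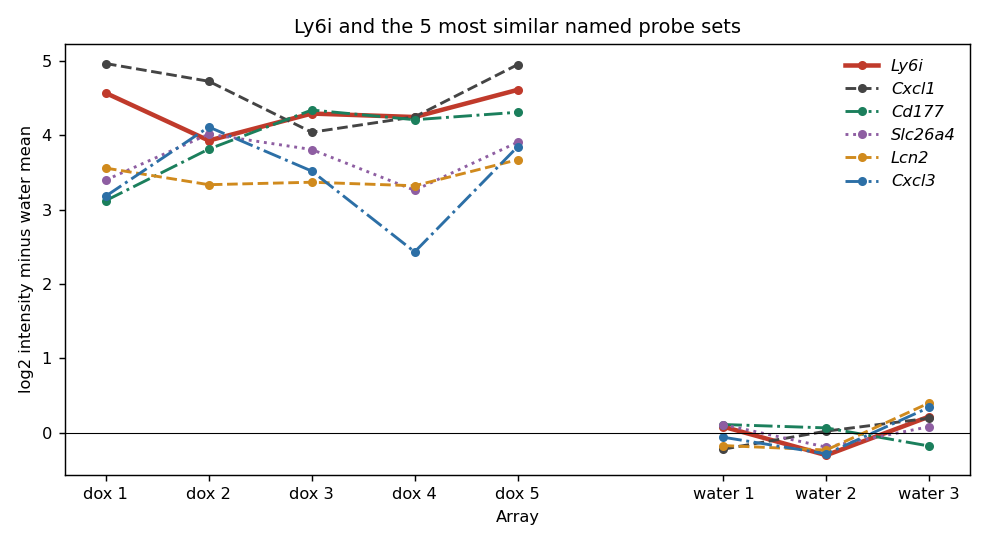
Log2 intensity minus the water mean (y axis) in each array (x axis) for Ly6i (thick line) and the 5 named probe sets nearest to it, with dox arrays left and water arrays right. All 6 sit far above 0 in dox, and none of the other 5 has the same order of dox arrays as Ly6i.

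Along the chromosome, a large difference stood at Ly6i beside small ones. In RefSeq order, 21 measured genes ran from Lypd2 to Gpihbp1, 8 of them members and 13 not. Of the 13 others, 0 passed in limma, 2 had an unadjusted p under 0.05 and 1 passed with the trend and robust prior, and their log2 differences ran from -0.43 to 0.57. Ly6e and Ly6a flank Ly6i among the measured genes, with log2 differences of 0.22 and 0.02. Ly6a2, picked here after its values were seen, read 62.4, 146, 114, 58.5 and 109.75 units in dox 1 to 5, against 67.2, 55.2 and 64.3 units in water 1 to 3. Dox 2, 3 and 5 were high, and dox 1 and 4 lay among the water values (0.57 ± 0.27 SE, limma adjusted p = 0.324). Its upstream window is the one identical to that of Ly6c2, yet the probe sets did not run together: Ly6c2 was highest in water 3 (215 units), where Ly6a2 read 64.3 units.

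**Figure D4:**
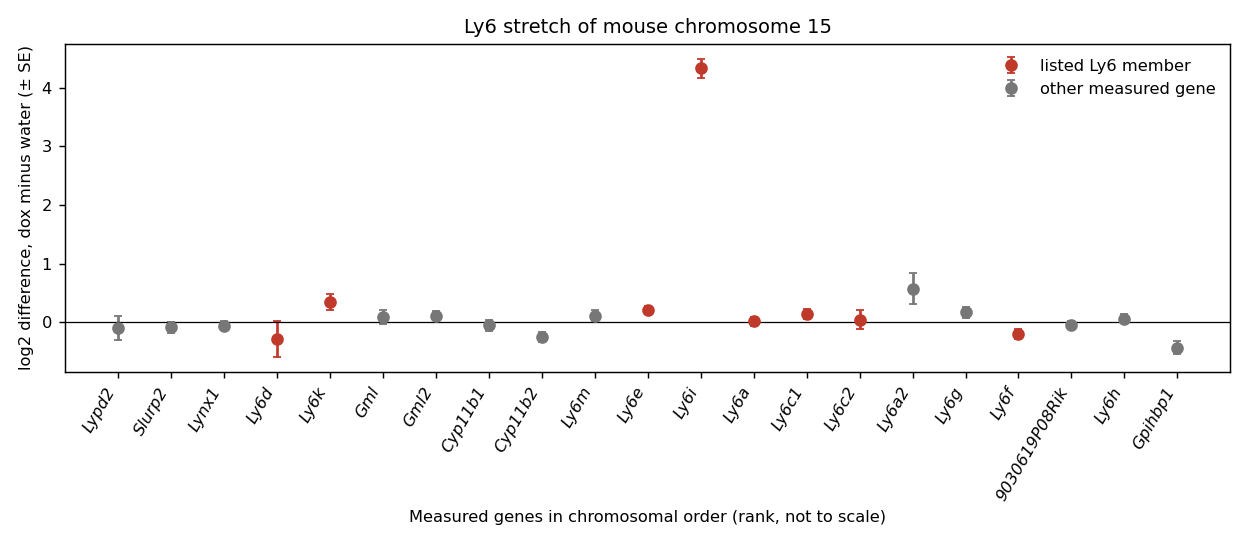
Log2 difference, dox minus water, with its SE (y axis) for 21 measured genes in their order along chromosome 15 (x axis, rank and not distance), members in red and other genes in grey. Ly6i stands at 4.33, and the others lie between -0.43 and 0.57.

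Outside the members, 36 of 39 listed genes with the same protein fold were measured, by 41 probe sets, of which 2 passed higher and 1 lower in dox, with a median of 0.04. Plaur, the receptor for the protease urokinase, rose (491 units in dox and 340 units in water as geometric means, 0.53 ± 0.09 SE, limma adjusted p = 0.0067). Lypd6b, a modulator of nicotinic acetylcholine receptors, rose by 0.54 ± 0.10 SE (adjusted p = 0.0121), a call lost without water 2 (0.0538). Its relative Lypd6 fell by 0.46 on 1 of its 2 probe sets (SE 0.10, adjusted p = 0.0269), a call lost without water 1 (0.0592), dox 2 (0.0591), dox 3 (0.0632) or dox 5 (0.0582). The other Lypd6 probe set had a log2 difference of -0.27 (adjusted p = 0.342). Gpihbp1, which carries lipoprotein lipase to the capillary lumen, read 3427, 2619, 2748, 3148 and 2978 units in dox 1 to 5, against 3668, 3770 and 4649 units in water 1 to 3. Every dox value lay below every water value, and the log2 difference, -0.43 ± 0.11 SE, missed the threshold (limma adjusted p = 0.0592). It passed with the trend and robust prior (0.0288) and without dox 1 (0.0417). Slurp1, a secreted member picked here after its values were seen, stood at a log2 difference of 0.57 ± 0.19 SE, short of the threshold (limma adjusted p = 0.154). The complement inhibitor Cd59a (0.04 ± 0.07 SE on its brighter probe set), the nicotinic receptor modulator Lynx1 (-0.06 ± 0.08 SE), Psca (0.05 ± 0.06 SE) and Ly6h (0.06 ± 0.08 SE) did not pass, and the last 2 were dim.

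Sequence motifs were searched on both strands of the RefSeq windows from 250 bases before to 50 bases after each start. The kappaB motif was found in 1.63% of 32851 windows, the interferon-stimulated response element in 3.44%, the STAT element TTCNNNGAA in 8.3% and the AP-1 element TGANTCA in 7.81%, and none of these 4 was in a window of Ly6c1, Ly6c2 or Ly6f. The C/EBP pattern TTGCNNAA, in 10.8% of windows, was in the window of Ly6f. The members Ly6i, Ly6a, Ly6d, Ly6e and Ly6k had no window to search, so nothing is known here of their motifs. These matches are a description of letters in these windows.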

How the data were processed

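Lung RNA was labelled with biotin and hybridised to 1-colour arrays, per the labels' protocols. The authors deposited linear intensities for every probe set; the submitters' processing notes name RMA, with no version. RMA normally equalises array distributions, so a change in total RNA cannot be seen. Accessions, gene symbols and probe set names came from other, non-numeric columns that the authors deposited, in a text table. Its 8 intensity columns match no sample label and were not used. Symbols of genes that are not members were updated by RefSeq accession (GRCm38.p6). The members and lists were chosen with earlier results of these data known.

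Log2 intensities of all 43681 probe sets were fitted with limma 3.58.1 in R 4.3.3 (lmFit, eBayes, 2-sided), with Benjamini-Hochberg adjustment over all probe sets and a threshold of 0.05. The computation was tested on simulated data. Marker lists used each gene's brightest probe set, and other Ly6 and uPAR genes every probe set. The text names all members, other Ly6 and uPAR genes past the threshold plus 6 fixed ones, up to 3 genes per marker list, 5 profile neighbours and 3 chromosomal neighbours per side. Other names were chosen after their values were seen. Pairwise global alignments of upstream DNA used biopython 1.88, with overhanging ends left out of the identity and gaps inside counted as differences. A planned comparison of the proteins was not run. The 17 alternatives were another prior, array weights, repeated normalization, median subtraction, a filter on dim probe sets, gene-level summaries, an added 16 units, the replicate block and each array left out. Same-numbered arrays did not deviate together, so the numbers were not taken as pairs. The number of arrays limits the precision.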

Additional observations from a re-analysis of the deposited data

How the results depend on the processing

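Of 136 member differences under the 17 alternatives, 134 moved by less than 1 SD between arrays. The exceptions, Ly6i and Ly6f, came with 16 units added before the log2 transform, where Ly6i was at 3.75. The trend and robust prior and the filter on dim probe sets cannot change a member's difference. Nor can the gene-level summaries, as each member has 1 probe set. The count of 134 includes these alternatives, which say nothing about how stable the differences are. The Ly6i difference ran from 4.18 to 4.44 with single arrays left out. Members higher in dox numbered 2 with the trend and robust prior and 2 with 16 units added, Ly6e being the second. Over all probe sets, 1010 were higher and 345 lower; the lower ones numbered 673 with the trend and robust prior, 624 with 16 units added and 146 to 338 with single arrays left out, and the higher ones 682 to 922. Of other Ly6 and uPAR genes, 1 to 2 were higher and 0 to 2 lower with single arrays left out, and 2 were lower with the trend and robust prior. With the replicate number as a block, 575 probe sets were higher and 101 lower, Ly6i was at 4.26, and 0 of the other Ly6 and uPAR genes passed either way (Plaur at an adjusted p of 0.0605). Deviations of same-numbered dox and water arrays correlated with r of 0.01, 0.04 and -0.11, so these arrays share only a number. Marker counts also fell with that block: 4 monocyte, 3 neutrophil and 5 interferon-response genes were higher. The causes of these shifts were not tested. Leaving out any single array kept r of Ly6d with the B cell sum at 0.976 to 0.982 and that of Ly6c1 at -0.983 to -0.861, alternatives chosen after seeing the data.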
